A study of Mus musculus with 6 samples.

Results

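*Trp53*, the mouse gene for the tumor suppressor p53, and 9 genes that p53 is known to activate directly (*Mdm2*, *Ccng1*, *Bax*, *Bbc3*, *Zmat3*, *Trp53inp1*, *Phlda3*, *Eda2r* and *Aen*) were followed in 2 kinds of B16 cells. The 10 genes were given as a list and found by their symbol among 20788 genes that had a value in at least 1 library, and all 10 had a value in all 6 libraries. B16 is a mouse melanoma cell line from the C57BL/6 strain. Tyr-L cells, with low tyrosinase activity, and Tyr-H cells, with high tyrosinase activity, are derivatives of B16 obtained by growing colonies from single cells, and each was sequenced in 3 libraries. Both were grown in the same low-glucose medium with serum, and no treatment is named for either. The sources used here do not say how many colonies stand behind each group or whether the 3 libraries came from separate cultures, so the SD and p-values given here describe the spread between libraries, which may be technical. The labels name no batch.

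p53 is a transcription factor that is kept at a low protein level by MDM2, a ubiquitin ligase whose own gene p53 activates, so that the pair forms a feedback loop. When DNA damage or another stress frees p53 from MDM2, it binds paired copies of a short DNA element near its target genes and turns on programs of cell cycle arrest, DNA repair and cell death. Much of this control acts on the p53 protein, which RNA sequencing does not measure.

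Expression is given as FPKM, fragments scaled to the length of the transcript and the number mapped in the library. The files hold no read counts, and from the spacing of the lowest FPKM values each library was estimated to hold 18900000 to 22000000 fragments. At that depth the lowest library of each gene held about 143 fragments for *Bbc3*, the least covered of the 10, and about 10285 for *Ccng1*, the best covered. Libraries of the same group differed by a median of 0.07 to 0.09 on the log2 scale and libraries of different groups by 0.27 to 0.32. All 7 melanocyte markers (*Mlana*, *Pmel*, *Dct*, *Tyrp1*, *Tyr*, *Sox10* and *Mitf*) exceeded 1 FPKM, with sums of 7343 to 7660 FPKM in Tyr-L and 5438 to 5958 FPKM in Tyr-H libraries. The 7 did not move together in the deposited values: *Tyr* was higher in Tyr-H cells (log2 change 1.08), while the other 6 were lower, by up to 1.85 in *Mitf*. The part of these differences in the results was not tested. Of the 8 leukocyte markers, 6 were listed in no library, *Ptprc* among them, and the sum stayed at 0.189 to 0.445 FPKM over all libraries. The sums of 4 endothelial, 4 fibroblast and 4 keratinocyte markers were at most 0.054, 0.300 and 0.0349 FPKM. In libraries made from many cells, a change in the share of cells that express a gene and a change in the RNA per cell cannot be told apart.

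The promoters of 5 of the 10 genes hold a match to the p53 half-site, the 10-base element (3 purines, C, 2 bases that are A or T, G, 3 pyrimidines) of which p53 binds 2 copies. RefSeq windows of build GRCm38.p6 that run from 250 bases before to 50 bases after a gene's start were found for 8 of the 10 genes; *Zmat3* and *Trp53inp1* had none. The half-site reads the same on both strands, so 1 search covers both. It occurred in 62.5% of these 8 genes and in 9.55% of the 27025 genes with a window (8.36% of 32851 windows). The targets were listed as genes that p53 is known to activate, so this contrast may follow from the choice of genes and is not a result of these data. *Trp53* itself is 1 of the 5 genes with a match. Each of the 5 stretches below shows a match to 1 copy of the element, and whether p53 binds there was not tested. Capitals mark the half-site, and each run is given 5′ to 3′ on the strand of its gene.

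Ccng1, chr11:40755442-40755491, minus strand: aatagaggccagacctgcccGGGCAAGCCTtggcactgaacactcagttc
Bax, chr7:45467070-45467119, minus strand: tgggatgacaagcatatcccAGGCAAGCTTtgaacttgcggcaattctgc
Mdm2, chr10:117710915-117710964, minus strand: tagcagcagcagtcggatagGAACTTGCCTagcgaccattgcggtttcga
Trp53, chr11:69580264-69580313, plus strand: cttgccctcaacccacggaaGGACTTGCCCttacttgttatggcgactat
Aen, chr7:78895927-78895956, plus strand: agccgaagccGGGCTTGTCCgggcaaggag

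In *Ccng1* the 10 bases directly before the capitals differ from a second half-site at 1 position, and in *Bax* a stretch that differs at 1 position ends 1 base before the capitals. The closest second copies near the sites of *Aen*, *Trp53* and *Mdm2* differed at 2, 3 and 4 positions. The windows of *Bbc3*, *Phlda3* and *Eda2r* held no exact match, which says only that these letters are not in the windows searched. The sites start 185 (*Ccng1*), 201 (*Bax*), 186 (*Mdm2*) and 75 (*Trp53*) bases before the RefSeq start, which for *Ccng1* lies inside the GENCODE gene whose ends are given with its values, and that of *Aen* 121 bases before its downstream start, inside an exon of a longer transcript. A match is a description of the sequence and not evidence of binding.

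Differences between Tyr-H and Tyr-L cells in these genes were small to moderate, and none of the 10 reached a 2-fold change, which with adjusted p ≤ 0.05 makes a called gene here. *Eda2r* and *Bbc3* were higher in Tyr-H cells by 82.6% and 64.6% of the Tyr-L mean, and *Zmat3* was lower by 41.0%. The other 7 moved by less than 20%. A gene was tested if its mean over all libraries reached 0.1 FPKM, and of the 14336 tested, 8.75% were called, with 2.96% up and 5.78% down in Tyr-H cells. The log2 change is the mean log2(FPKM + 0.1) of Tyr-H minus that of Tyr-L libraries, and it was tested with limma, two-sided, with its standard error (SE) and Benjamini-Hochberg adjustment over all tested genes. At adjusted p ≤ 0.05 with no fold-change threshold, 4 of the 10 genes were higher in Tyr-H cells, 3 were lower and 3 did not pass. The same rule took 57.8% of all tested genes (17.9% higher, 39.9% lower), and 64% of all tested genes had groups that did not overlap, as had 7 of the 10, so the members passed at a rate close to the background. The median log2 change was 0.03 over the 10 genes and -0.15 over all tested genes, and the median absolute value was 0.17 against 0.32.

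That median of -0.15 depends on how libraries are scaled. Median ratio scaling brought it to -0.01 and quantile normalization to -0.01, while rescaling each library to a total of 1000000 moved it to -0.24. Relative to the deposited shift, the log2 changes of the 10 genes ran from -0.60 for *Zmat3* to 1.00 for *Eda2r*. After median ratio scaling, 7 members were higher in Tyr-H cells at adjusted p ≤ 0.05 and 1 was lower, where 27.8% and 27% of all tested genes were. By the same rule 5 were higher and 2 lower after quantile normalization, and 2 higher and 3 lower after rescaling to a total of 1000000, so the balance depended on the scaling.

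**Figure D1:**
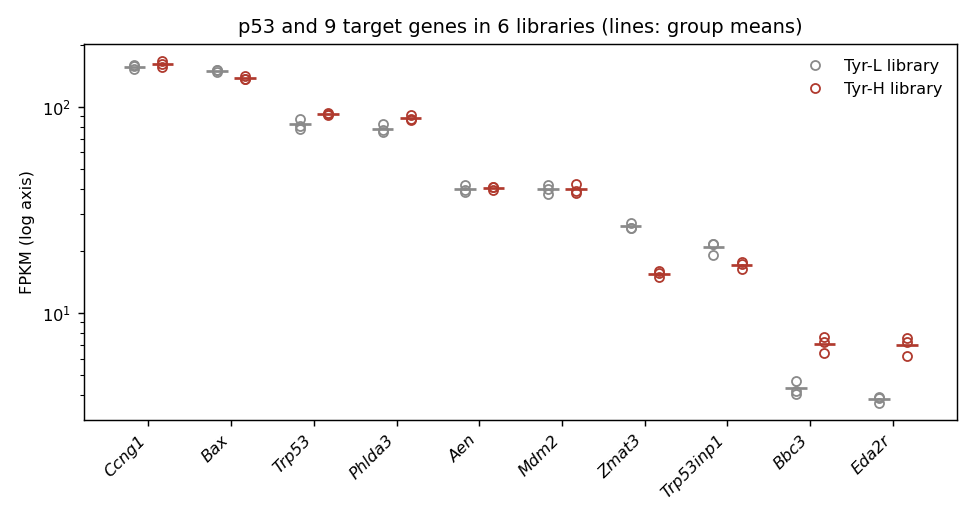
FPKM on a log axis of the 10 genes, ordered by mean level, with 1 open circle per library (grey Tyr-L, red Tyr-H) and a line at each group mean. The groups lie apart most clearly in *Zmat3* (15.5 FPKM in Tyr-H against 26.3 in Tyr-L), *Bbc3* (7.08 against 4.30) and *Eda2r* (6.97 against 3.82), and they overlap in *Ccng1*, *Aen* and *Mdm2*.

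*Trp53* (ENSMUSG00000059552, chromosome 11, 69580359 to 69591873, plus strand, GRCm38) was expressed at a high level in both kinds of cells, above 94.6% of tested genes by its mean. It stood at 77.8, 87.0 and 80.8 FPKM in the 3 Tyr-L libraries, against 91.9, 91.3 and 93.2 FPKM in Tyr-H. Every Tyr-H library lay above every Tyr-L library, although the highest Tyr-L value came within a few FPKM of the Tyr-H range. The means were 81.9 ± 4.70 and 92.1 ± 0.973 FPKM (SD, n = 3), a log2 change of 0.17 (SE 0.04, 95% interval 0.07 to 0.27, adjusted p = 0.0073 from limma; two-sided exact permutation p = 0.1, the smallest that 3 against 3 can give). It did not pass the adjusted p after each library was rescaled to a total of 1000000 (log2 change 0.08, adjusted p = 0.183) and was 0.32 after median ratio scaling. Among the 11026 genes compared, those with a mean of at least 1 FPKM, the 3 whose centred log2 values over the 6 libraries lay closest to those of *Trp53* were *Inpp5b*, *Scarb1* and *Smurf2*, with root mean square differences of 0.018, 0.020 and 0.020 against a median of 0.214.

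The feedback genes differed little between the groups. *Mdm2* (ENSMUSG00000020184, chromosome 10, 117688875 to 117710758, minus strand) encodes the ligase that marks p53 for degradation. Its values were 41.5, 37.7 and 40.0 FPKM in Tyr-L against 38.2, 42.0 and 39.0 FPKM in Tyr-H libraries, so the groups overlapped over nearly their whole range. The means were 39.7 ± 1.93 and 39.7 ± 2.01 FPKM (SD, n = 3) and the log2 change was 0.00 (SE 0.05, 95% interval -0.11 to 0.11, adjusted p = 0.999). Its sign changed without Tyr-L replicate 2 (-0.038) or Tyr-H replicate 2 (-0.041), and after median ratio scaling it was 0.15 (adjusted p = 0.02). *Ccng1* (ENSMUSG00000020326, chromosome 11, 40748552 to 40755311, minus strand) encodes cyclin G1, which recruits a phosphatase to MDM2, and was the most highly expressed of the 10 in FPKM. It had 159, 153 and 157 FPKM in Tyr-L against 166, 162 and 155 FPKM in Tyr-H libraries. These ranges overlapped, with a log2 change of 0.04 (SE 0.04, 95% interval -0.04 to 0.12, adjusted p = 0.348), and 0.19 after median ratio scaling (adjusted p = 0.0016).

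*Bax* and *Bbc3*, both of the BCL2 family, act at the mitochondrion in cell death, and they moved in opposite directions in the deposited values. *Bax* (ENSMUSG00000003873, chromosome 7, 45461697 to 45466898, minus strand) encodes a protein that opens the outer mitochondrial membrane. Its values were 151, 147 and 150 FPKM in Tyr-L against 136, 136 and 141 FPKM in Tyr-H libraries. All 3 Tyr-H libraries were below all 3 Tyr-L libraries. The log2 change was -0.12 (SE 0.03, 95% interval -0.19 to -0.05, adjusted p = 0.0082), but 0.032 after median ratio scaling (adjusted p = 0.425), so its direction depended on the scaling. The deposited table gives *Bax* a locus shared with 5 other genes, and *Bax* overlaps *Gm45808* on the same strand, which had at most 0.0415 FPKM in any library.

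*Bbc3* (ENSMUSG00000002083, chromosome 7, 16308393 to 16318205, plus strand) encodes PUMA, a BH3-only protein that disables the survival proteins of the family. It was at 4.18, 4.67 and 4.06 FPKM in Tyr-L against 6.40, 7.62 and 7.24 FPKM in Tyr-H libraries. The groups were well separated, and the Tyr-H libraries varied more among themselves. The means were 4.30 ± 0.326 and 7.08 ± 0.625 FPKM (SD, n = 3), a 1.65-fold difference with a log2 change of 0.70 (SE 0.09, 95% interval 0.50 to 0.91, adjusted p = 0.00014; exact permutation test, two-sided, p = 0.1). It lay between 0.61 and 0.87 in all 15 alternatives.

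*Eda2r* (ENSMUSG00000034457, chromosome X, 97333840 to 97377216, minus strand) encodes XEDAR, a receptor of the tumor necrosis factor family that binds ectodysplasin A2, and had the lowest level and the largest increase among the 10. It stood at 3.93, 3.66 and 3.87 FPKM in Tyr-L, against 7.52, 6.18 and 7.22 FPKM in Tyr-H libraries. The lowest Tyr-H library was well above every Tyr-L library. The mean rose from 3.82 ± 0.143 to 6.97 ± 0.701 FPKM (SD, n = 3), 1.83-fold, with a log2 change of 0.85 (SE 0.09, 95% interval 0.65 to 1.05, adjusted p = 4.1e-05; exact permutation test, two-sided, p = 0.1). The interval includes the 2-fold threshold, and *Eda2r* was called after quantile normalization (log2 change 1.02). Of all tested genes, 86.7% had a smaller absolute log2 change.

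*Zmat3* (ENSMUSG00000027663, chromosome 3, 32334792 to 32366014, minus strand) encodes a zinc finger protein that binds RNA and affects splicing and mRNA stability, and it fell in Tyr-H cells while *Trp53* did not. Its values were 25.7, 25.7 and 27.4 FPKM in Tyr-L against 15.7, 15.9 and 14.95 FPKM in Tyr-H libraries. The spread within each group was small beside the gap between them. The means were 26.3 ± 0.987 and 15.5 ± 0.500 FPKM (SD, n = 3), a log2 change of -0.76 (SE 0.05, 95% interval -0.86 to -0.65, adjusted p = 2e-06; exact permutation test, two-sided, p = 0.1). In all 15 alternatives it stayed between -0.85 and -0.60. *Trp53inp1* (ENSMUSG00000028211, chromosome 4, 11156431 to 11174379, plus strand), whose stress-induced protein promotes p53 activity and autophagy, had 21.6, 19.1 and 21.6 FPKM in Tyr-L against 17.3, 16.4 and 17.6 FPKM in Tyr-H libraries. Again no Tyr-H library reached the lowest Tyr-L library. The log2 change was -0.28 (SE 0.06, 95% interval -0.41 to -0.15, adjusted p = 0.0028). It did not pass after median ratio scaling (-0.13, adjusted p = 0.0998) or quantile normalization (-0.15, adjusted p = 0.0602).

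*Phlda3* (ENSMUSG00000041801, chromosome 1, 135766119 to 135769136, plus strand) encodes a small lipid-binding protein that holds back the kinase AKT, and its level and change were close to those of *Trp53*. The values were 76.6, 82.4 and 75.7 FPKM in Tyr-L against 90.6, 86.3 and 86.7 FPKM in Tyr-H libraries. The groups did not overlap. The log2 change was 0.17 (SE 0.04, 95% interval 0.08 to 0.26, adjusted p = 0.0064), falling to 0.07 (adjusted p = 0.203) after rescaling to a total of 1000000. *Aen* (ENSMUSG00000030609, chromosome 7, 78895854 to 78911209, plus strand) encodes an exonuclease that digests DNA and RNA during apoptosis. It had 39.3, 41.7 and 38.7 FPKM in Tyr-L against 40.7, 39.2 and 40.9 FPKM in Tyr-H libraries. The ranges overlapped, with a log2 change of 0.01 (SE 0.04, 95% interval -0.08 to 0.11, adjusted p = 0.782). It was -0.0070 without Tyr-L replicate 3 and 0.17 after median ratio scaling (adjusted p = 0.0082).

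**Figure D2:**
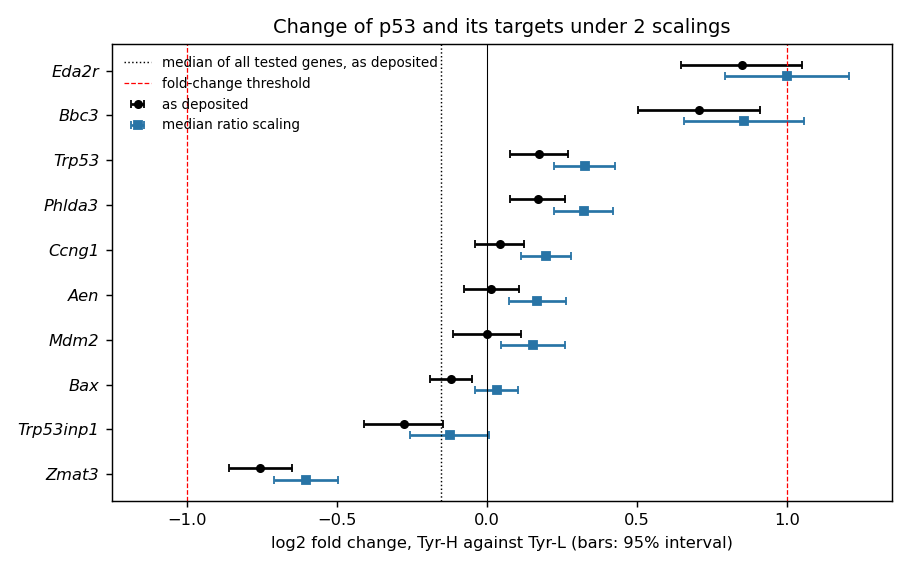
Log2 change from Tyr-L to Tyr-H for each gene with its 95% interval, from the deposited values (black circles) and after median ratio scaling (blue squares). *Eda2r* and *Bbc3* lie to the right of 0 and *Zmat3* to the left under both scalings, while *Bax* crosses from -0.12 to 0.032 and *Mdm2* moves from 0.00 to 0.15; the dotted line marks the median of all tested genes at -0.15.

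A ratio of 2 genes within a library does not change when each library is multiplied by a single factor, as in 2 of the 3 scalings used here, but quantile normalization can change it. The ratio of *Mdm2* to *Trp53* was 0.533, 0.433 and 0.495 in Tyr-L and 0.415, 0.460 and 0.418 in Tyr-H libraries. The ranges overlapped, and the log2 ratio was lower in Tyr-H cells by a mean of 0.17, between 0.10 and 0.25 with each library left out in turn (exact permutation test, two-sided, p = 0.2). Of the 9 target genes, 7 had a lower mean log2 ratio to *Trp53* in Tyr-H cells, and in *Zmat3*, *Trp53inp1*, *Bax* and *Aen* the groups did not overlap. Of 13764 tested genes listed in all libraries, 77.1% had a lower ratio to *Trp53* in Tyr-H cells, 56.9% were lower with no overlap and 11.3% higher with no overlap, and the median log2 ratio differed by -0.33, so counts of lower ratios among the 9 are near those of any genes. The log2 ratio of *Zmat3* to *Trp53* differed by -0.93, that of *Trp53inp1* by -0.45 and that of *Bax* by -0.29. In *Bbc3* and *Eda2r* the ratio was higher in every Tyr-H library, by 0.55 and 0.69 on the log2 scale. *Phlda3* had nearly the same FPKM as *Trp53* in each library, with ratios averaging 0.956 ± 0.0254 in Tyr-L cells and 0.954 ± 0.0285 in Tyr-H cells (SD, n = 3). The 6 ratios without overlap each had an exact permutation p of 0.1, or 0.15 adjusted over the 9. All 9 share the same *Trp53* values.

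**Figure D3:**
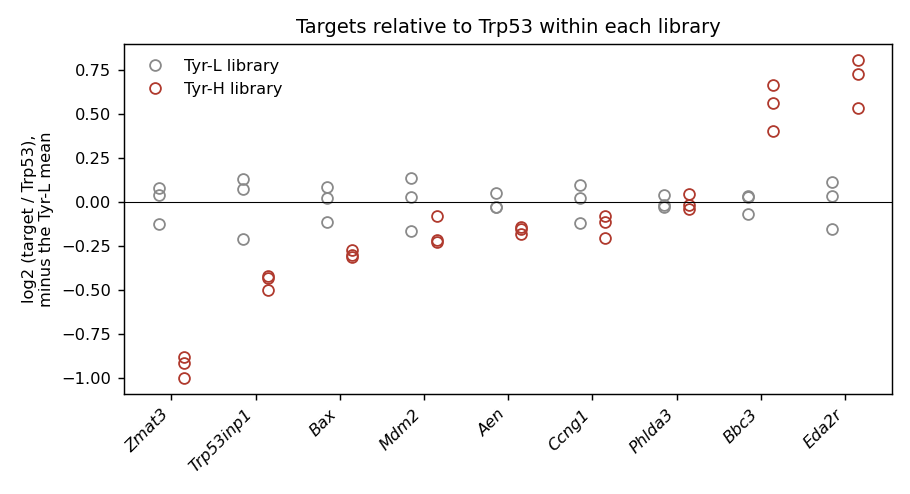
Log2 ratio of each target to *Trp53* within a library, shown as the difference from the Tyr-L mean of that gene, with 1 circle per library (grey Tyr-L, red Tyr-H). *Zmat3* lies lowest in Tyr-H cells (-0.93 on average) and *Eda2r* highest (0.69), and the circles of both groups mix in *Phlda3*, *Ccng1* and *Mdm2*.

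Other p53 targets differed in both directions, and some of them were called. Of 41 other direct targets drawn up by function, 37 were tested, and 8 were higher and called (*Gadd45a*, *Gdf15*, *Fas*, *Plk2*, *Ddit4*, *Plk3*, *Sesn2* and *Btg2*) and 1 (*Psrc1*) was lower and called, where 2.96% and 5.78% of all tested genes were. The list was drawn up with earlier results of these data known. Its counts and those of its functional groups, set beside these shares, are therefore a description and not a test. *Fas* met the limit of 0.1 FPKM only through the Tyr-H libraries, and without it 7 were higher and called. At adjusted p ≤ 0.05 alone, 16 were higher and 17 lower, against 17.9% and 39.9% of all tested genes, and after median ratio scaling 18 and 13, against 27.8% and 27%. Rescaling to a total of 1000000 gave 14 and 18. *Fas* is among the higher genes in each of these counts. In the deposited values the median log2 change of the 37 was 0.00 and their median absolute value 0.56, beside -0.15 and 0.32 for all tested genes. *Pmaip1* was listed in no library, and *Perp*, *Ptprv* and *Spata18* were under the limit of 0.1 FPKM.

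Of the 8 tested cell cycle targets, 4 were called higher and 1 lower, and at adjusted p ≤ 0.05 alone 6 were higher and 2 lower, beside the same shares of all tested genes (2.96% and 5.78% called, 17.9% and 39.9% at adjusted p). *Cdkn1a* encodes p21, the CDK inhibitor best known as a p53 target, and overlaps AC167363.2. It had 91.6, 93.4 and 91.2 FPKM in Tyr-L against 149, 151 and 151 FPKM in Tyr-H libraries, very even within each group. Its log2 change of 0.71 (SE 0.03, 95% interval 0.64 to 0.77, adjusted p = 2.7e-07) was under the 2-fold threshold. *Gadd45a*, which acts in growth arrest and DNA repair and overlaps E230016M11Rik, had 5.62, 5.75 and 5.71 FPKM in Tyr-L against 42.1, 48.9 and 53.04 FPKM in Tyr-H libraries. The difference was 8.43-fold between the means, a log2 change of 3.05 (SE 0.08, adjusted p = 2.7e-08), far outside the spread of either group. The polo-like kinase gene *Plk2* rose from 7.81 ± 0.621 to 28.2 ± 3.22 FPKM and *Plk3*, which overlaps *Tctex1d4*, from 2.07 ± 0.208 to 5.48 ± 0.392 FPKM (SD, n = 3), log2 changes of 1.84 (adjusted p = 5e-07) and 1.37 (adjusted p = 6.2e-06). The antiproliferative gene *Btg2* was at the threshold, with means of 3.13 ± 0.170 and 6.40 ± 0.205 FPKM (SD, n = 3) and a log2 change of 1.01 (adjusted p = 7e-06). This value went to 0.99 without Tyr-L replicate 1, Tyr-L replicate 3 or Tyr-H replicate 2, to 0.92 after rescaling to a total of 1000000 and to 0.84 with 1 FPKM added in place of 0.1, and was not called in these settings. *Psrc1*, which encodes a spindle protein, went the other way, from 82.2 ± 2.74 to 36.9 ± 2.82 FPKM (SD, n = 3; log2 change -1.15, SE 0.05, adjusted p = 5e-07).

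Of the 11 tested targets in metabolism and stress, 3 (*Gdf15*, *Sesn2* and *Ddit4*) were called higher, where 2.96% of all tested genes were. At adjusted p ≤ 0.05 alone, 4 were higher and 5 lower, against 17.9% and 39.9%, and the median log2 change of the 11 was -0.12. The split of the 11 was 4 and 4 after median ratio scaling, against 27.8% and 27% of all tested genes, and 3 and 6 after rescaling to a total of 1000000. *Gdf15*, a secreted stress cytokine of the transforming growth factor family, had 3.35, 4.02 and 4.55 FPKM in Tyr-L against 24.1, 19.2 and 18.5 FPKM in Tyr-H libraries, a log2 change of 2.35 (SE 0.13, adjusted p = 9.4e-07). *Sesn2*, which overlaps *Gm12981*, and *Ddit4*, both of which restrain the growth regulator mTORC1, rose from 9.46 ± 1.34 to 21.9 ± 2.47 FPKM and from 10.6 ± 0.986 to 31.9 ± 4.62 FPKM (SD, n = 3), log2 changes of 1.20 (adjusted p = 1.7e-05) and 1.57 (adjusted p = 3.2e-06). *Sesn1*, the relative of *Sesn2*, did not share this direction, with 5.95 ± 0.184 FPKM in Tyr-L against 3.34 ± 0.244 FPKM in Tyr-H cells (SD, n = 3; log2 change -0.81, SE 0.08, adjusted p = 3.3e-05), and *Sesn1* is named here after its values were seen. *Ephx1*, a detoxifying hydrolase and among the 3 most highly expressed of the list, fell by 0.46 on the log2 scale (SE 0.04, adjusted p = 8.5e-06). Of the 6 targets in feedback and other roles, none was called, 2 were higher and 3 lower at adjusted p ≤ 0.05, against 17.9% and 39.9% of all tested genes. This split was 3 and 1 after median ratio scaling, against 27.8% and 27%, and 1 and 3 after rescaling to a total of 1000000. In this group *Rps27l*, a ribosomal protein paralog, fell by 0.17 (adjusted p = 0.022) with overlapping groups and had -0.015 (adjusted p = 0.83) after median ratio scaling.

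In DNA repair and nucleotide supply, none of 5 tested genes was called. At adjusted p ≤ 0.05, 3 were lower and 1 was higher, where 39.9% and 17.9% of all tested genes were (3 and 2 after median ratio scaling, against 27% and 27.8%). *Ddb2*, *Ercc5* and *Polk* had log2 changes of -0.90, -0.70 and -0.62, and *Xpc* had 0.31, all 4 named after their values were seen. Of the 7 tested cell death targets, 3 (*Fas* among them) were higher and 4 lower by the same rule, or 3 and 3 after median ratio scaling (27.8% and 27% of all tested genes). There *Ei24*, named after its values were seen, had a log2 change of -0.014 (adjusted p = 0.807). *Fas*, the death receptor gene, was the one called, where 2.96% of all tested genes were called higher, but its Tyr-L mean of 0.0986 FPKM lay under the 0.1 FPKM limit and it was tested through its Tyr-H mean of 0.685 FPKM. It had 0.137 and 0.158 FPKM in Tyr-L replicates 1 and 2, was not listed in Tyr-L replicate 3, and reached 0.758, 0.402 and 0.895 FPKM in Tyr-H. Its log2 change of 2.04 (SE 0.42, adjusted p = 0.0024) depended on the value added before taking logs: it was 0.61, under the threshold, with 1 FPKM in place of 0.1, and 3.39 (adjusted p = 0.0172) with 0.01 FPKM, and the gene was not tested where a mean of at least 1 FPKM was asked. *Fas* overlaps *Gm27818*.

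**Figure D4:**
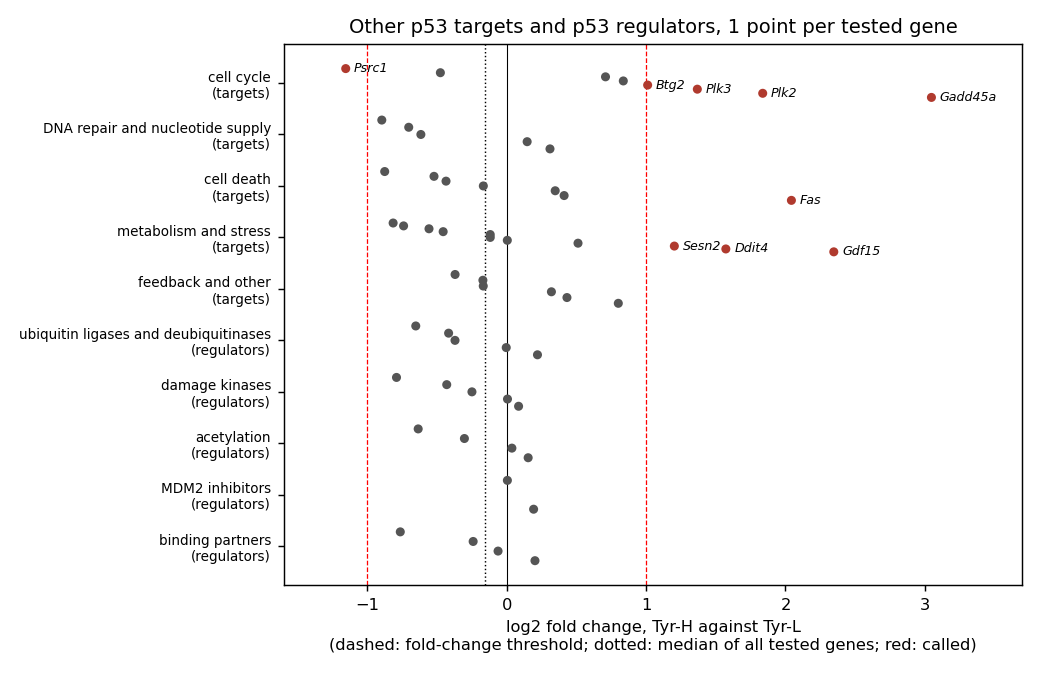
Log2 change from Tyr-L to Tyr-H for each tested gene of the 2 wider lists, 1 point per gene by functional group, red and named where called. The called points are 8 targets to the right of 1, up to *Gadd45a* at 3.05, and *Psrc1* at -1.15 to the left, and no regulator is called.

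Of 23 regulators of p53, 20 were tested and none was called by limma, where 8.75% of all tested genes were, while 4 were higher and 9 lower in Tyr-H cells at adjusted p ≤ 0.05, close to the 17.9% and 39.9% of all tested genes. The number higher was 1 without Tyr-L replicate 1, Tyr-L replicate 3 or Tyr-H replicate 2, and after median ratio scaling 8 were higher and 7 lower, against 27.8% and 27% of all tested genes. Their median log2 change of -0.15 was that of all tested genes. *Mdm4* encodes the MDM2 relative that binds p53 and blocks its activity, and it overlaps *Gm29257*. It had 20.7, 18.8 and 21.4 FPKM in Tyr-L against 11.2, 13.5 and 14.1 FPKM in Tyr-H libraries. Every Tyr-H library was lower, with a log2 change of -0.65 (SE 0.09, adjusted p = 0.00019), between -0.75 and -0.50 in all 15 alternatives. *Mdm4* was 1 of the 9 lower regulators. The damage kinase gene *Atm*, named after its values were seen, fell by more (log2 change -0.79, SE 0.07, limma adjusted p = 1.6e-05). *Cdkn2a*, whose ARF product inhibits MDM2, was listed in no library of either group. *Rpl5* and *Rpl11*, ribosomal proteins that also bind MDM2, were the most highly expressed of the list, at 405 ± 5.56 and 395 ± 13.2 FPKM in Tyr-L against 463 ± 3.48 and 396 ± 12.4 FPKM in Tyr-H libraries (SD, n = 3). *Rpl5* was higher in Tyr-H cells (log2 change 0.19, adjusted p = 0.00045) but did not pass after quantile normalization (0.045, adjusted p = 0.32). *Rpl11* had a log2 change of 0.00 (95% interval -0.08 to 0.09), which scaling moved from -0.13 with quantile normalization to 0.16 with median ratios. Both ribosomal protein genes have processed copies in the genome that could share their reads. The ubiquitin ligase gene *Cop1* was at 37.0 ± 2.33 and 36.9 ± 2.09 FPKM (SD, n = 3; log2 change 0.00, 95% interval -0.13 to 0.12). Of the p53 paralogs, *Trp63* was listed in no library and *Trp73* in 1, at 0.0088 FPKM.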

How the data were processed

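RNA from 3 Tyr-L and 3 Tyr-H libraries had been sequenced as pairs of 150 bp reads from an mRNA kit. The submitters' processing notes name Trimmomatic, HISAT2 and HISAT with build GRCm38.p6; the quantifier and annotation are not given in the sources used here. The authors deposited FPKM values, 1 table per library, and genes they did not list were taken as 0. Whether reads were counted by strand is not stated, which leaves the values of overlapping genes uncertain.

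Groups and replicate numbers came from the labels. Depth was estimated from the most frequent lowest step of FPKM times length over genes with 1 transcript of at least 1500 nt in GENCODE M21 (GRCm38), which also gave gene coordinates (counted from 1), strands and overlaps; 20709 of 20788 identifiers matched. limma 3.58.1 (R 4.3.3; lmFit, eBayes with a variance trend) was run on log2(FPKM + 0.1) where the mean over all libraries was 0.1 FPKM or more, which understates changes of low genes. Calls required adjusted p ≤ 0.05 and a change of 1 or more on the log2 scale. Intervals are 95% and unadjusted. The procedure was tested on simulated data. Other steps used Python 3.11.15 and scipy 1.17.1.

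The 10 genes and both wider lists were chosen with earlier results of these data known. Named genes are the 10, every called gene of the wider lists, the 3 with the highest mean FPKM of each, *Cdkn1a*, *Mdm4* and *Cdkn2a*, the 3 genes closest to *Trp53* and genes overlapping a member. Outside this rule, listed genes not tested, p53 paralogs, cell type markers and some genes overlapping another named gene are named to account for them. Of the wider lists and markers, *Rpl5*, *Cop1*, *Sesn1*, *Ephx1*, *Ddb2*, *Polk*, *Ei24*, *Pmel*, *Dct* and *Mitf* also overlap other annotated genes, and their values carry the same uncertainty. The ratios to *Trp53* other than that of *Mdm2*, their shares over all genes, and genes marked as such, were chosen after seeing the data. Alternatives were 2 pseudocounts, 2 filters, 3 scalings, no variance trend, the replicate number as a block and each library left out.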

Additional observations from a re-analysis of the deposited data

How the results depend on the processing

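Of the 10 genes, *Eda2r*, *Bbc3* and *Zmat3* kept their direction and adjusted p ≤ 0.05 in all 15 alternatives. The number called stayed at 0 except after quantile normalization, where it was 1 (*Eda2r*). Scaling turned the sign of log2 changes near 0: rescaling to a total of 1000000 gave -0.053 for *Ccng1*, -0.094 for *Mdm2* and -0.080 for *Aen*, and median ratio scaling gave 0.032 for *Bax*. With each library left out in turn, *Mdm2* ran from -0.041 to 0.032 and *Aen* from -0.0070 to 0.046. Over all tested genes, 388 were called with a pseudocount of 1 FPKM and 640 with a mean of at least 1 FPKM, against 1254, and 538 higher and 588 lower after median ratio scaling, 611 and 494 after quantile normalization or 366 and 1031 after rescaling to that total, against 425 and 829; apart from the fewer genes tested under the filter, the cause was not tested. With the replicate number as a block, 1258 genes were called, 7 of the 10 genes passed the adjusted p as before, and no called gene of the wider lists was lost. Deviations of same-numbered libraries correlated at -0.17 to 0.03, and not every library correlated best with its own number, so no pairing by number was seen in the values. Such correlations cannot show whether same-numbered libraries were prepared together.

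FPKM values without counts limit the error model to the spread of 3 libraries, and an exact test of 3 against 3 cannot go below p = 0.1. RNA levels do not give the amount, modification or sequence of the p53 protein.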
